A study of Glycine max with 12 samples.

Results

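Sense junction lncRNAs with sister isoforms are long non-coding transcripts that lie on the strand of an annotated gene, share at least 1 of its splice junctions, and occur more than once in the same gene. They were taken as the transcripts of class code j on chromosomes 1 to 20 whose host gene name stood in 2 or more class j entries, with 6 host names left out. The rule used position, class and host name and no expression value, but it was set with earlier results of these data known. It gave 334 of the 11072 lncRNA transcripts of the deposited table, in 134 host genes. Class j held 1074 transcripts in all, of which 729 on these chromosomes were alone in their host.

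The study compared young pods of the low-linolenic acid soybean mutant MT72, a fourth-generation line, with pods of JN18, its wild type, taken 30 or 40 d after flowering. Libraries MT_7, MT_8 and MT_9 form the group MT_30, libraries MT_4, MT_5 and MT_6 form MT_40, libraries JN_7, JN_8 and JN_9 form JN_30, and libraries JN_4, JN_5 and JN_6 form JN_40. All groups are total RNA depleted of ribosomal RNA, and each library is 1 of 3 biological replicates of its group. MT72 is 1 mutant line, so its mutation for low linolenic acid and any other change it carries cannot be told apart. A young pod holds pod wall, seed coat, embryo and endosperm, and fewer cells of a type and less RNA per cell cannot be told apart in such bulk RNA. The table lists lncRNA transcripts only, so the tissue was not checked against protein-coding markers.

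When a plant gene is transcribed, its introns can be removed in several ways, and transcription can start or end at several sites, so that 1 gene gives a family of isoforms. A non-coding isoform of a protein-coding gene may keep an intron or lose the part of the reading frame that would be translated, and genes for lncRNAs are spliced into isoforms by the same machinery. The reads of sister isoforms fall largely on the same exons, and the program StringTie divides them among the isoforms by a model. The level of an isoform, given as FPKM (fragments scaled by transcript length and by the mapped fragments of the library), is therefore less certain than the summed level of its host, most of all where isoforms are nearly identical. The results give the level of each isoform and its share of the summed FPKM of the class j isoforms of its host. Coding mRNAs of the host are not in the table and do not enter this sum. Transcripts of other classes do not enter it either, also in lncRNA hosts, so the sum is not the level of the whole gene.

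Depth, taken as deposited coverage over FPKM, was 10.0 to 12.3 Gb of aligned bases per library. At the median length of these isoforms 1 FPKM thus corresponded to 58.5 to 71.5 estimated reads. This depth was not set against the number of raw reads the study reports. Library JN_9 stood apart. It listed 2847 of all lncRNAs at 0, against 2074 to 2360 in the other libraries, and its isoforms of this class summed to 684.5 FPKM, against 239 to 354 elsewhere. Among the 325 isoforms with a value above 0 in any library, JN_9 gave the highest value for 76 and the lowest for 44, and in 21 cases its value was more than 3 times the next. The other libraries gave the highest value for 14 to 37 isoforms. For isoforms named from JN_40 versus JN_30 or MT_30 versus JN_30, tests are therefore given with and without JN_9.

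The hosts were spread over all 20 chromosomes, from 4 hosts on chromosomes 3, 5, 7 and 16 to 13 on chromosome 4. The isoforms numbered 188 on the plus and 146 on the minus strand. Most hosts, 94, had 2 isoforms, 27 had 3, 7 had 4, 3 had 5, 1 had 6 and 2 had 8. RefSeq (Glycine_max_v4.0) matched 121 of the 134 host names, and 73 of these (60.3%) were protein-coding genes, 46 (38.0%) were lncRNA genes and 2 were transcribed pseudogenes. Among class j transcripts alone in their host, 688 of 729 hosts were matched, of which 581 (84.5%) were protein-coding and 102 (14.8%) were lncRNA genes. These shares are a description and were not tested.

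Isoforms with sisters were longer and had more exons than class j transcripts without one. Their median length was 873.5 bases, from 205 to 9645, against 606 bases for the transcripts alone in their host. They had 3.25 exons on average against 2.69, and 35% had only 2 exons against 55.8%. Isoforms of lncRNA hosts had a median of 1198 bases, and those of protein-coding hosts 655. The transcripts alone in their host were not split by type of host, so lengths were not compared within a type. The longest was MSTRG.12388.2 of LOC100805092, with 2 exons, and the largest exon number, 10, was found in MSTRG.19247.10 of LOC100795415.

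Sisters differed mostly at their ends. Of 318 sister pairs, 294 overlapped in their spans and 24 pairs, in 16 hosts, lay apart along the gene. The same 5′ end was found in 85 pairs and the same 3′ end also in 85, and both ends were the same in 55. In 18 pairs both ends and the exon number were the same, so that these isoforms can be told apart only by the choice of internal junctions. The longer isoform of a pair was at the median 1.40 times the length of the shorter. Lengths differed by less than 50 bases in 41 pairs and by more than 2 times in 83. LOC100792557, a protein-coding host on chromosome 7, showed the first pattern of spacing: its 4 isoforms followed each other along the plus strand without overlap, the first at 37805404 to 37805969 and the last at 37815040 to 37816116. LOC100797976, a lncRNA host on chromosome 11, showed the opposite one, as all 5 isoforms ran from 10572585 to 10575691 on the minus strand with 4 to 6 exons. Coordinates are those of the deposited table, whose genome build the sources used here do not state.

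Levels were low. The median of the mean over 12 libraries was 0.469 FPKM, against 0.373 for class j transcripts alone in their host and 0.383 for all lncRNAs. A mean above 1 FPKM was reached by 87 isoforms (26.0%). In all 12 libraries 188 isoforms were detected at an FPKM above 0, and 9 were listed at 0 in every library.

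LOC100819812, a lncRNA gene on chromosome 11, had the highest summed level of these hosts. Its 8 isoforms together gave 40.4, 55.6 and 78.8 FPKM in JN_30 (libraries JN_7 to JN_9), 38.9, 60.3 and 46.2 in JN_40, 33.4, 25.4 and 32.4 in MT_30, and 57.8, 41.4 and 39.2 in MT_40. All 3 MT_30 libraries lay below all others. MSTRG.5822.1, of 4 exons and 2263 bases, led in every library, with shares of 49.2% to 65.3%. MSTRG.5822.12 was usually next, with 6.03% to 37.3%, and the other 6 isoforms divided the remainder. MSTRG.5822.7 switched between 0 and 16.1 FPKM among libraries of the same group, with 0, 8.96 and 16.1 FPKM in JN_30 and 0, 0 and 6.37 in JN_40. It starts 12 bases before MSTRG.5822.12 and ends at the same base.

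LOC100527098, a protein-coding gene on chromosome 15, followed with 3 isoforms. They summed to 18.0, 21.6 and 4.16 FPKM in JN_30, 18.9, 37.7 and 21.4 in JN_40, 25.9, 16.3 and 20.1 in MT_30, and 31.7, 23.8 and 30.6 in MT_40. JN_9 was far below the other 11 libraries, which overlapped between groups. MSTRG.17027.2 led in 11 libraries, with 41.6% to 69.2% of the sum.

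Several hosts took their rank from JN_9. LOC102667055, a lncRNA gene on chromosome 7, gave 242.3 FPKM in JN_9 and 0 to 7.21 FPKM in the other libraries, and its mean fell from 21.5 to 1.37 FPKM without JN_9. MYB73, whose product belongs to the MYB family of transcription factors, gave 17.1 FPKM in JN_9 and at most 1.08 FPKM elsewhere. LOC100527086, a protein-coding gene on chromosome 4, gave 33.2 FPKM in JN_9 and at most 1.12 FPKM elsewhere. In the opposite direction, LOC102663083 gave 0.0548 FPKM in JN_9 and 2.57 to 11.7 FPKM elsewhere.

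PSK3, which encodes a precursor of the peptide growth factor phytosulfokine, had 2 isoforms on chromosome 10. The leading isoform MSTRG.2945.3 gave 5.82, 5.19 and 0.140 FPKM in JN_30, 3.45, 5.54 and 3.66 in JN_40, 7.24, 6.42 and 6.87 in MT_30, and 6.43, 6.03 and 5.32 in MT_40. MT_30 lay above all JN18 libraries, and JN_9 was far below the rest. Its share was 86.7% to 100% in all libraries. ATG8i, a member of the ATG8 family of autophagy proteins that mark the growing autophagosome, summed to 3.32, 4.46 and 18.9 FPKM in JN_30, 8.98, 6.38 and 6.13 in JN_40, 2.99, 3.13 and 2.65 in MT_30, and 7.65, 6.45 and 5.47 in MT_40. In both materials the 40 d libraries were above the 30 d libraries, JN_9 excepted. MSTRG.28528.1 led in 11 of 12 libraries. In STV2A, the remaining host with a gene symbol, MSTRG.41226.3 led in every library and the host summed to 0.270 to 1.15 FPKM.

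**Figure D1:**
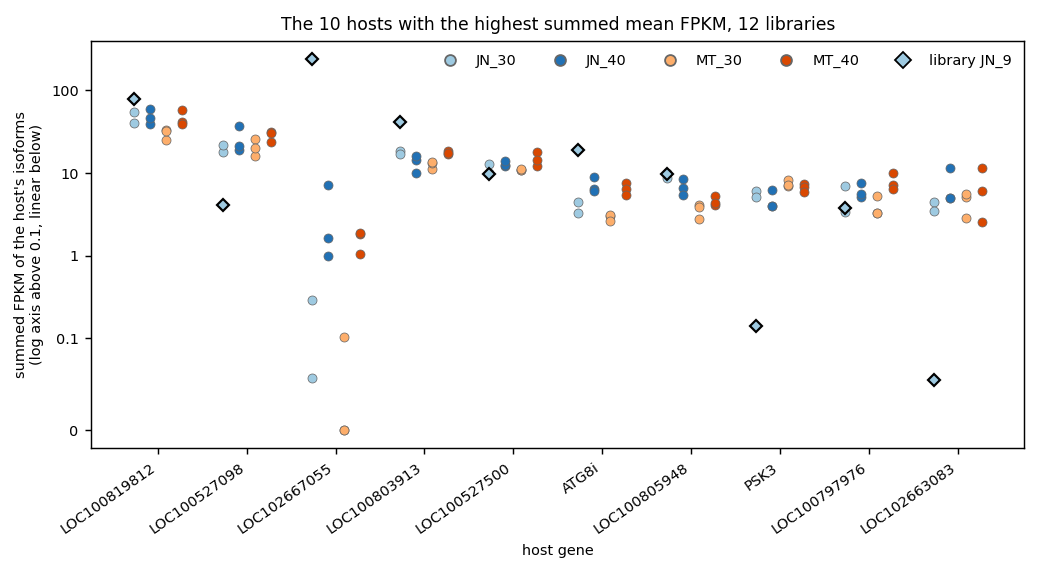
Summed FPKM of the isoforms of each of the 10 hosts with the highest mean, on an axis that is logarithmic above 0.1 FPKM and linear below it, with 1 point per library coloured by group and JN_9 drawn as a black-edged diamond. JN_9 is far above the other libraries for LOC102667055 (242.3 FPKM) and ATG8i (18.9 FPKM) and far below them for PSK3 (0.140 FPKM) and LOC102663083 (0.0548 FPKM).

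Most hosts changed their leading isoform among the 12 libraries. The same isoform was the highest of its host in every library in 41 hosts (30.6%), while 74 hosts had 2 different leaders, 16 had 3 and 1 had 4. Another 2 hosts were listed at 0 throughout. When only the 49 hosts with at least 0.5 FPKM in every library were taken, 21 (42.9%) kept 1 leader. Among hosts with 2 isoforms 33 of 94 (35.1%) had 1 leader, among those with 3 isoforms 7 of 27 (25.9%), and among those with 4 or more 1 of 13, which was LOC100819812. Protein-coding hosts kept 1 leader in 24 of 73 cases (32.9%) and lncRNA hosts in 13 of 46 (28.3%). The longest isoform led by mean FPKM in 74 hosts and the shortest in 51.

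In the median host the leading isoform held 69.5% to 79.1% of the sum, depending on the library. The leader was taken anew in each library, so in the 94 hosts with 2 isoforms its share cannot fall below an even split. These shares therefore do not show how far ahead a leader was. By group means, 85 hosts (63.4%) had the same leader in all 4 groups and 47 did not. Of the 82 hosts with at least 0.5 FPKM in every group, 26 had different leaders.

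LOC100500251, a protein-coding gene on chromosome 12, showed the largest change of share between groups among these 26. Its 3-exon isoform MSTRG.9435.3 spans 35360967 to 35362023 on the minus strand and overlaps the 2-exon isoform MSTRG.9435.1 at 35360894 to 35361920. The share of MSTRG.9435.3 was 31.8%, 55.1% and 0% in JN_30, 52.0%, 0% and 0% in JN_40, 71.0%, 60.8% and 79.1% in MT_30, and 97.7%, 63.0% and 72.4% in MT_40. All 6 MT72 libraries lay above all 6 JN18 libraries. In levels, MSTRG.9435.3 gave 0.196, 0.529 and 0 FPKM in JN_30, 0.482, 0 and 0 in JN_40, 1.53, 0.810 and 1.51 in MT_30, and 0.343, 0.569 and 1.02 in MT_40. MT_30 was above JN_30, while MT_40 and JN_40 overlapped.

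The other hosts of this kind varied widely within groups. In LOC100794484 the share of MSTRG.13454.8 averaged 74.5% ± 12.7 (SD, n = 3) in MT_30 but 21.4% ± 37.1 (SD, n = 3) in MT_40, with 2 of the 3 MT_40 libraries at 0. In LOC102666349 the share of MSTRG.37955.2 was 56.1% ± 16.4 (SD, n = 3) in MT_40 but 2.67% ± 4.62 (SD, n = 3) in JN_40, with no overlap, and 27.5% ± 47.7 (SD, n = 3) in MT_30, where 1 library held 82.6% and the others 0. For MSTRG.32759.5 of LOC102663235 the share in JN_40 ran from 12.9% to 92.2%. MSTRG.3287.3 of LOC102665730 ran from 0.831% to 95.0% in MT_30, and this host was listed at 0 in JN_8. LOC100803388, LOC100804369 and LOC100777182 also had different leaders by group means.

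Some of these hosts had many isoforms. LOC100778970, a protein-coding gene on chromosome 2, was the host with 4 different leaders. MSTRG.30535.12 held 84.9% of it in JN_7, MSTRG.30535.13 held 85.9% in MT_4 and MSTRG.30535.10 held 69.7% in MT_5. These isoforms have lengths of 4354 to 9180 bases and end within a few bases of each other. In LOC100803913, a lncRNA gene on chromosome 1 whose sum was 10.0 to 42.0 FPKM, the lead passed between MSTRG.1643.6 and MSTRG.1643.2 in most libraries. The share of MSTRG.1643.6 was 63.3%, 75.7% and 11% in JN_30, 13.1%, 71.0% and 79.9% in JN_40, 30.1%, 14.5% and 22.7% in MT_30, and 47.5%, 43.7% and 47.8% in MT_40. The MT72 stages did not overlap, while JN_9 and JN_4 stood apart within their own groups.

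The hosts with 4 or more isoforms were mostly lncRNA genes, 11 of 13, and in all but LOC100819812 more than 1 isoform led. In LOC100805948, on chromosome 19, the 8 isoforms summed to 10.1, 8.79 and 9.87 FPKM in JN_30, 8.48, 6.54 and 5.39 in JN_40, 4.09, 3.93 and 2.80 in MT_30, and 5.24, 4.11 and 4.31 in MT_40. All 6 JN18 libraries lay above all 6 MT72 libraries. MSTRG.26971.13 led it in 10 libraries, with 14.9% in JN_8 and 31.7% in MT_7 as its lowest shares. MSTRG.6515.2 led LOC100797976 in 10 libraries, MSTRG.26885.1 led LOC100811088 in 10, MSTRG.13307.7 led LOC106795550 in 10 and MSTRG.1967.6 led LOC102663083 in 9. In LOC102664278, LOC102661209, LOC100792557 and LOC100794484 no isoform led in more than 8 libraries. MSTRG.43396.1 led LOC100788508 in 11 libraries, and its sister MSTRG.43396.22 was at 0.995 FPKM in JN_7 and listed at 0 in the other 11.

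**Figure D2:**
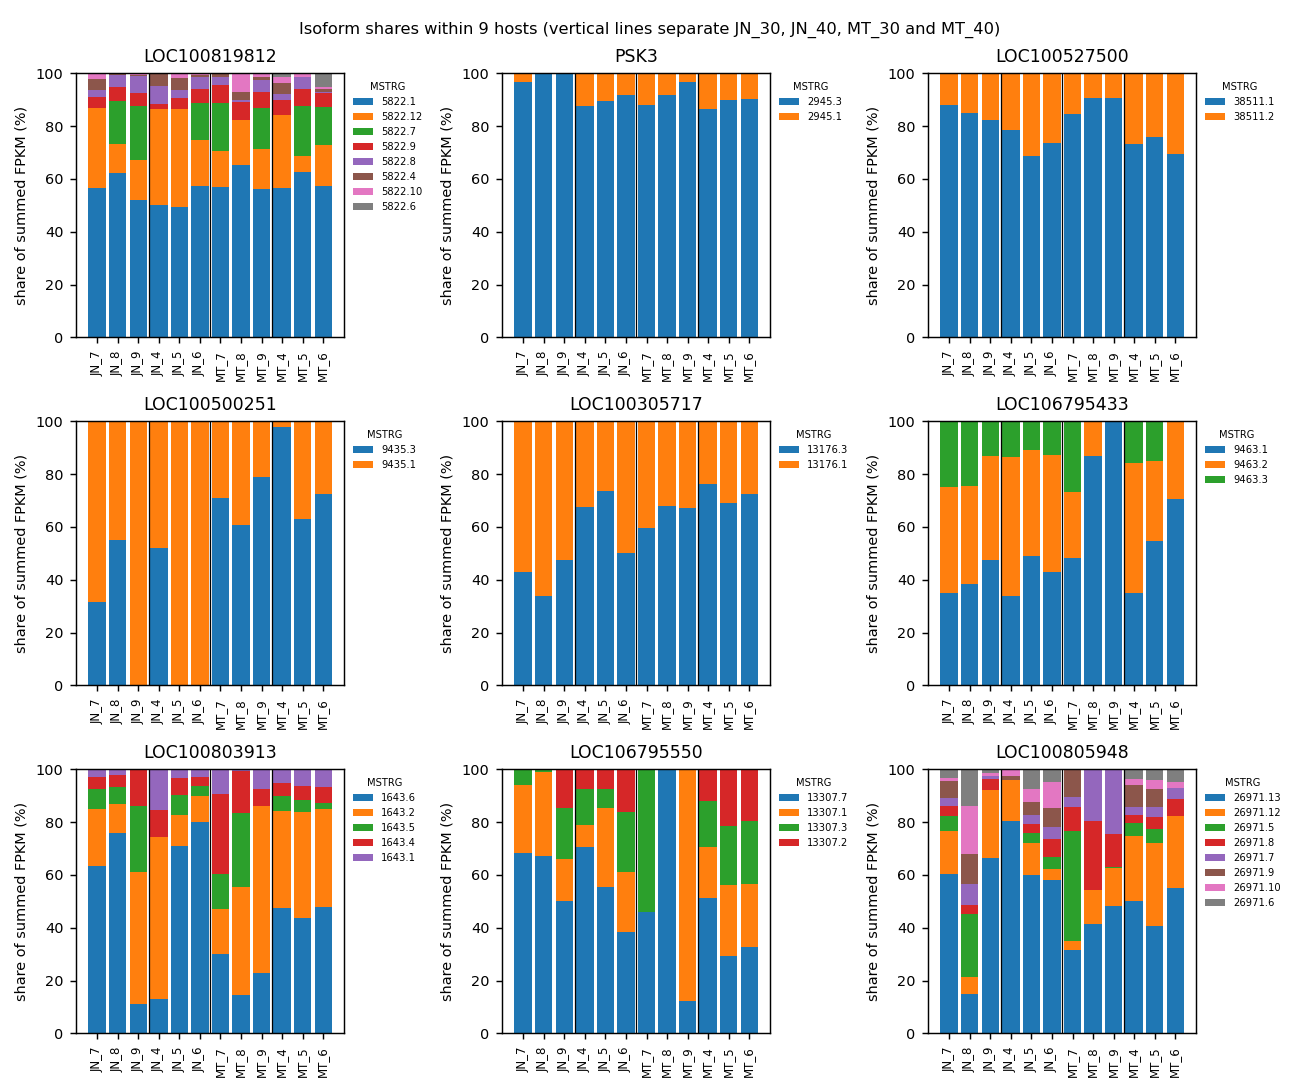
Share of each isoform in the summed FPKM of its host (percent, stacked bars, 1 bar per library, isoforms coloured by their mean rank) for 9 hosts. MSTRG.5822.1 and MSTRG.2945.3 lead LOC100819812 and PSK3 in every library, MSTRG.9435.3 of LOC100500251 holds 60.8% to 97.7% in the MT72 libraries, and the leader of LOC100803913 changes within groups.

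Levels of stages and materials were tested by limma on log2(FPKM + 0.1), in 1 fit with all 4 groups, with p-values adjusted by the Benjamini-Hochberg method over the 9142 lncRNAs above 0.1 FPKM in at least 3 libraries. Of the 334 isoforms 290, in 126 hosts, passed this filter. A call means an adjusted p of at most 0.05, and the study's unadjusted thresholds mean an absolute log2 difference above 1 with an unadjusted p of at most 0.05. A log2 difference refers to log2(FPKM + 0.1) and understates the change of isoforms near 0. The comparisons share libraries with one another, except that the stage comparisons of JN18 and MT72 have none in common.

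In MT72, isoforms that changed between the stages were mostly higher at 40 d. In MT_40 versus MT_30 11 of the 290 isoforms were called (3.79%), in 8 hosts, against 2.5% of all lncRNAs, with 9 higher and 2 lower. At the unadjusted thresholds 36 isoforms in 23 hosts were higher (12.4%, against 6.81% of all lncRNAs). Lower were 11 isoforms in 9 hosts (3.79%, against 7.37%). Libraries of MT_40 and MT_30 did not overlap for 83 isoforms (28.6%), the share found for all lncRNAs being 28.6%. The median log2 difference was 0.15 for the tested isoforms and -0.10 for all lncRNAs. Isoforms of lncRNA hosts were higher at the unadjusted thresholds in 22 and lower in 2 of 118 cases, and those of protein-coding hosts in 9 and 5 of 146. Sisters share reads, so these cases are not independent. No share over all lncRNAs was computed by type of host, and the difference between the types was not tested. The count of 11 calls became 5, 7 and 7 without MT_4, MT_5 and MT_6, 5, 4 and 4 without MT_7, MT_8 and MT_9, and 18 without JN_9, which kept all 11. A fit of MT_40 and MT_30 alone gave 30 calls. No share over all lncRNAs was computed for these alternative fits, so the changes in count cannot be read as particular to these isoforms.

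In LOC106795550, a lncRNA gene on chromosome 13, the class j isoforms were near 0 in MT_30. Its 4 isoforms lie between 44155421 and 44160177 on the plus strand and have 6 to 8 exons, and together they gave 1.64, 2.20 and 5.54 FPKM in JN_30, 4.25, 3.57 and 3.82 in JN_40, 0.0666, 0.307 and 0.284 in MT_30, and 6.15, 3.30 and 2.93 in MT_40. All MT_30 libraries lay below all other libraries. MSTRG.13307.7 gave 0.0307, 0.307 and 0.0351 FPKM in MT_30 and 3.14, 0.965 and 0.960 in MT_40, a log2 difference of 3.0 ± 0.57 (SE, limma adjusted p = 0.0150). MSTRG.13307.1 gave 0, 0 and 0.249 FPKM in MT_30 and 1.19, 0.886 and 0.693 in MT_40, a log2 difference of 2.73 ± 0.56 (SE, limma adjusted p = 0.0238). MSTRG.13307.3 gave 0.0359, 0 and 0 FPKM in MT_30 and 1.07, 0.741 and 0.705 in MT_40, a log2 difference of 3.06 ± 0.72 (SE, limma adjusted p = 0.0400). For each of them the groups did not overlap, which the rule for naming isoforms fixes. The fourth isoform, MSTRG.13307.2, was listed at 0 in all MT_30 libraries and gave 0.737, 0.710 and 0.575 FPKM in MT_40, with a limma adjusted p of 0.0515. MSTRG.13307.7 stayed called in 14 of 18 alternative settings, MSTRG.13307.1 in 13 and MSTRG.13307.3 in 8, with adjusted p of up to 0.0729, 0.114 and 0.152. The first call was lost without MT_4, MT_7 or MT_9 and at a pseudocount of 1, the next without MT_4, MT_5, MT_6, MT_7 or MT_8, and that of MSTRG.13307.3 without any 1 of the 6 MT72 libraries, JN_4 or JN_6, at a pseudocount of 1 and with no filter on low values. All 3 remained called without JN_9.

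LOC102665482, on chromosome 10 and not matched in RefSeq, was listed at 0 in MT_30 for all 3 isoforms. MSTRG.4974.2, of 2 exons at 49742081 to 49753584, gave 2.66, 0.702 and 1.60 FPKM in MT_40 (limma adjusted p = 0.00376), and it gave 0, 0 and 0.202 in JN_30 and 0.775, 0.986 and 1.2 in JN_40. All 6 libraries at 40 d were thus above all 6 at 30 d. MSTRG.4974.3 begins at the same base and gave 1.94, 2.17 and 0.662 FPKM in MT_40 (limma adjusted p = 0.0126), 0, 0.504 and 0.204 in JN_30, and 0.351, 0.808 and 2.03 in JN_40, where the JN18 stages overlapped. No size of change is given against a group listed at 0. MSTRG.4974.2 remained called in all 18 alternatives, and MSTRG.4974.3 in 14, its call being lost without MT_4, MT_5, MT_8 or MT_9 at an adjusted p of up to 0.0670.

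In 4 further hosts a single isoform was called higher. MSTRG.40989.2 of the protein-coding host LOC100806499 gave 0.0977, 0.0901 and 0.247 FPKM in MT_30 and 3.35, 2.05 and 1.35 in MT_40, a log2 difference of 3.23 ± 0.55 (SE, limma adjusted p = 0.00917). Its sister MSTRG.40989.3 was listed at 0 in all 6 libraries at 30 d and gave 1.31, 0.610 and 0.238 FPKM in MT_40 and 3.76, 0.161 and 0 in JN_40. MSTRG.1783.3 of the protein-coding host LOC100806219 gave 0, 0.242 and 0.124 FPKM in MT_30 and 1.05, 1.09 and 0.745 in MT_40, a log2 difference of 2.41 ± 0.50 (SE, limma adjusted p = 0.0246). In both cases MT_30 lay below MT_40 without overlap, which the choice fixes. MSTRG.50346.3 of the lncRNA host LOC106799817 gave 0.300, 0.147 and 0.111 FPKM in MT_30 and 4.20, 1.21 and 0.704 in MT_40, a log2 difference of 2.59 ± 0.62 (SE, limma adjusted p = 0.0453). This call held in 6 of 18 alternatives with an adjusted p of up to 0.186, and was lost without MT_4, MT_5, any MT_30 or JN_40 library, or JN_8, at pseudocounts of 0.01 and 1, and with no filter. MSTRG.40989.2 held in 17 alternatives and was lost without MT_8 (adjusted p = 0.0502). MSTRG.1783.3 held in 11 with an adjusted p of up to 0.101, and was lost without any MT_40 library, MT_7 or MT_9 and at pseudocounts of 0.01 and 1.

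In LOC100527500, a protein-coding gene on chromosome 4, only the minor isoform moved past the threshold. MSTRG.38511.1, with 3 exons, and MSTRG.38511.2, with 2, have the same ends, 49582026 and 49584495. MSTRG.38511.2 gave 1.66, 1.02 and 1.08 FPKM in MT_30 and 4.80, 2.95 and 4.39 in MT_40, a log2 difference of 1.62 ± 0.32 (SE, limma adjusted p = 0.0185). MSTRG.38511.1 gave 9.10, 10.0 and 10.2 FPKM in MT_30 and 13.2, 9.18 and 9.95 in MT_40, where the stages overlapped. The share of MSTRG.38511.2 was 11.4% ± 3.46 (SD, n = 3) in MT_30 but 27.2% ± 3.17 (SD, n = 3) in MT_40, while in JN18 it was 14.9% ± 2.82 (SD, n = 3) in JN_30 but 26.4% ± 4.87 (SD, n = 3) in JN_40. The stages did not overlap in either material. The difference in ratio between the isoforms was 1.5 ± 0.40 (log2, SE) in MT72, with an unadjusted limma p of 0.00270 and an adjusted p of 0.453, so that it did not pass. The level call held in 14 of 18 alternatives and was lost without MT_4, MT_6, MT_8 or MT_9, at an adjusted p of up to 0.104.

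Both isoforms called lower in MT_40 were listed at 0 there. MSTRG.15428.8 of LOC102665062, a lncRNA gene on chromosome 14, gave 0.472, 1.54 and 0.668 FPKM in MT_30 (limma adjusted p = 0.00701) and 0.618, 0.236 and 0.197 in JN_30, and was listed at 0 in all 6 libraries at 40 d. A listing at 0 in all libraries at 40 d with presence in all at 30 d was found for this 1 isoform of the 334 and for 3 of all 11072 lncRNAs, and the opposite pattern for 0 isoforms and 3 lncRNAs. Its call was kept in all 18 alternatives. MSTRG.24302.3 of LOC100816593, on chromosome 18 and not matched in RefSeq, gave 0.442, 0.614 and 0.212 FPKM in MT_30 (limma adjusted p = 0.00917) and at most 0.0068 FPKM in any other library. Its mean of under 0.5 FPKM left it outside the rule for levels, and it is named as 1 of these 2.

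**Figure D3:**
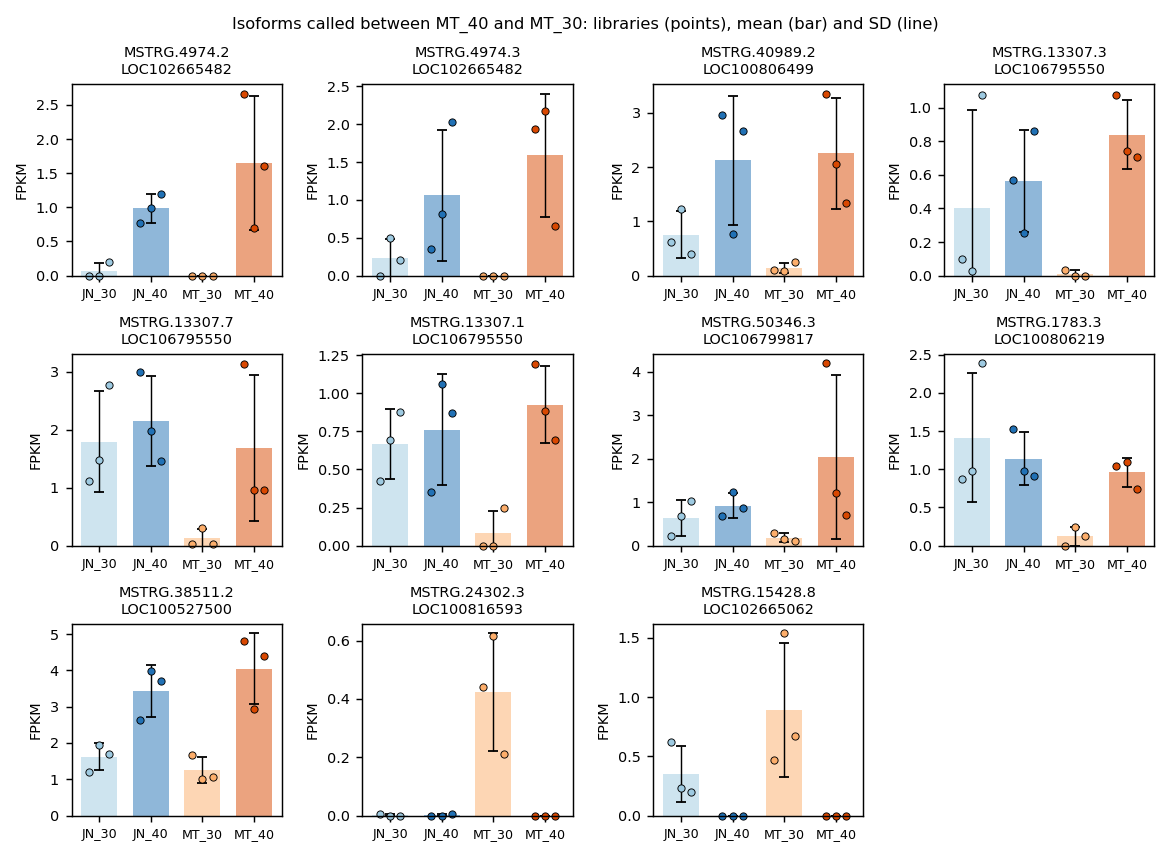
FPKM of the 11 isoforms called in MT_40 versus MT_30, 1 panel each, with the 3 libraries of each group as points, the group mean as a bar and the SD as a line. The 9 isoforms called higher lie at or near 0 in MT_30, except MSTRG.38511.2 at 1.02 to 1.66 FPKM, and MSTRG.15428.8 is listed at 0 in all 40 d libraries.

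In JN18 no isoform was called between the stages. In JN_40 versus JN_30 the limma test gave 0 calls among 290, against 0.197% of all lncRNAs, and at the unadjusted thresholds 18 isoforms were higher (6.21%, against 5.49%) and 4 lower (1.38%, against 5.14%). Groups did not overlap for 33 isoforms (11.4%, against 13.1%). The median log2 difference was -0.02, and -0.08 for all lncRNAs. Leaving out JN_8 gave 2 calls and raised the unadjusted count from 22 to 38, and leaving out JN_9 gave 1 call. For these fits the share over all lncRNAs was not computed.

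Among the isoforms without overlap that averaged at least 0.5 FPKM in the higher group, the 5 with the smallest p in JN18 were higher at 40 d. MSTRG.15428.8, described above and lower at 40 d, fell under this level, with a limma adjusted p of 0.127, or 0.0889 without JN_9. MSTRG.4974.2, also described above, had an adjusted p of 0.0678, or 0.0294 without JN_9. MSTRG.21163.3 of the protein-coding host LOC100818321 gave 0, 0 and 0.215 FPKM in JN_30 and 2.27, 0.979 and 0.557 in JN_40 (limma adjusted p = 0.179, or 0.0993 without JN_9). MSTRG.37457.5 of the lncRNA host LOC102659881 gave 0.247, 0.768 and 0.646 FPKM in JN_30 and 1.33, 1.71 and 1.54 in JN_40 (limma adjusted p = 0.189, or 0.123 without JN_9). MSTRG.38511.2 gave 1.21, 1.95 and 1.70 FPKM in JN_30 and 2.63, 3.98 and 3.71 in JN_40 (limma adjusted p = 0.230, or 0.174 without JN_9). MSTRG.44150.2 of the lncRNA host LOC102667226 gave 1.63, 2.0 and 2.21 FPKM in JN_30 and 3.45, 4.61 and 2.78 in JN_40 (limma adjusted p = 0.286, or 0.190 without JN_9). None of these groups overlapped, which the choice fixes, and no difference passed the adjusted threshold with all libraries.

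The stage differences of the materials were set side by side for the 290 tested isoforms. At the unadjusted thresholds 9 isoforms in 6 hosts were higher at 40 d in both materials (3.1%, against 2.13% of all lncRNAs), 2 were lower in both (0.69%, against 1.04%) and 0 went in opposite directions. Those higher in both included both called isoforms of LOC102665482, both isoforms of LOC102659881 and of LOC100806499, and MSTRG.38511.2. Across isoforms, Pearson's r of the log2 differences was 0.33 and Spearman's rho 0.28 (0.40 and 0.31 over all 9142 lncRNAs), a description only, since sisters share reads and isoforms are not replicates. A stage effect that differed between the materials was called for 0 isoforms (limma, against 0.0766% of all lncRNAs), with 19 at an unadjusted p of at most 0.05 (6.55%, against 6.73%). The smallest p belonged to MSTRG.24302.3 (adjusted p = 0.423), MSTRG.1783.3 (adjusted p = 0.550), MSTRG.13307.7 and MSTRG.13307.1 (both adjusted p = 0.569) and MSTRG.10017.6 of LOC102667407 (adjusted p = 0.569). MSTRG.10017.6 gave 0.756, 0.922 and 0.705 FPKM in MT_30 and 0.224, 0.257 and 0 in MT_40, while JN_30 (0.732, 0.190 and 0) and JN_40 (0.611, 0.359 and 0.895) overlapped.

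**Figure D4:**
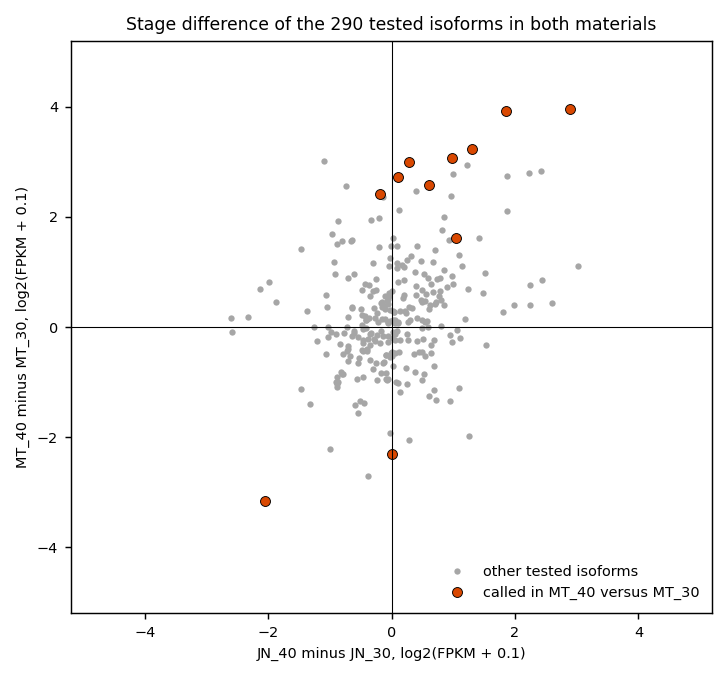
Difference between 40 d and 30 d in log2(FPKM + 0.1) for the 290 tested isoforms, JN18 on the horizontal and MT72 on the vertical axis, with the 11 isoforms called in MT72 in orange. Of the called isoforms 9 lie above and 2 below 0 on the vertical axis, and several lie near 0 on the horizontal axis. The pseudocount sets the position of isoforms with a group listed at 0.

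At 30 d MT72 and JN18 differed in few of these isoforms. In MT_30 versus JN_30 3 isoforms were called (1.03%, against 0.886% of all lncRNAs), 1 higher and 2 lower, and all of them were also called between the stages of MT72, with which this comparison shares the MT_30 libraries. At the unadjusted thresholds 13 were higher (4.48%, against 7.25%) and 18 lower (6.21%, against 4.73%), and groups did not overlap for 50 (17.2%, against 17.7%). MSTRG.13307.7 gave 1.12, 1.48 and 2.78 FPKM in JN_30, all above the MT_30 values, with a log2 difference of -3.20 ± 0.57 (SE, limma adjusted p = 0.0181). MSTRG.1783.3 gave 0.870, 0.984 and 2.39 FPKM in JN_30, also above MT_30, with a log2 difference of -2.81 ± 0.50 (SE, limma adjusted p = 0.0195). MSTRG.24302.3 gave 0.0055, 0 and 0 FPKM in JN_30, below all MT_30 values, with a log2 difference of 2.28 ± 0.39 (SE, limma adjusted p = 0.0163). Without JN_9 only 1 call remained, that of MSTRG.24302.3, and MSTRG.13307.7 and MSTRG.1783.3 had adjusted p of 0.0590 and 0.0581. With all libraries the call of MSTRG.13307.7 was also lost at a pseudocount of 1 and that of MSTRG.1783.3 at a pseudocount of 0.01. JN_9 held the highest of the JN_30 values for both. The count was 0 without MT_7 or MT_9 and in a fit of the compared groups alone, and 5 without JN_7, and the unadjusted count rose from 31 to 52 without JN_7. Shares over all lncRNAs were not computed for these fits.

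Next by p, without passing, came isoforms with higher and with lower values in MT_30. MSTRG.9230.9 of the protein-coding host LOC102662941 gave 0.326, 1.16 and 0.669 FPKM in MT_30 and 0.112, 0.104 and 0.00378 in JN_30 (limma adjusted p = 0.0858, or 0.216 without JN_9). MSTRG.13307.1 gave 0.424, 0.694 and 0.877 FPKM in JN_30, above MT_30 (limma adjusted p = 0.0893, or 0.206 without JN_9). MSTRG.2945.1, the minor isoform of PSK3, gave 1.0, 0.577 and 0.230 FPKM in MT_30 and 0.206, 0 and 0 in JN_30 (limma adjusted p = 0.133, or 0.257 without JN_9). The PSK3 groups did not overlap, but the lowest MT_30 value was close to the highest JN_30 value.

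At 40 d the materials were closest. In MT_40 versus JN_40 the limma test gave 0 calls, against 0.153% of all lncRNAs. At the unadjusted thresholds 7 isoforms were higher in MT72 (2.41%, against 3.4%) and 5 lower (1.72%, against 2.45%), and groups did not overlap for 31 (10.7%, against 14%). The median log2 difference was 0.04, and -0.01 for all lncRNAs. MSTRG.18786.2 of the protein-coding host LOC100306318 had the smallest p, with 1.83, 0.950 and 1.2 FPKM in MT_40 below 4.49, 2.42 and 2.76 in JN_40 (limma adjusted p = 0.411). MSTRG.5822.6, a minor isoform of LOC100819812, gave 0.758, 0.0314 and 2.03 FPKM in MT_40 and at most 0.0299 in JN_40 (limma adjusted p = 0.545), and it was called without MT_5, at an adjusted p of 0.0264. The next without overlap were MSTRG.9435.1 of LOC100500251, MSTRG.37955.2 of LOC102666349 and MSTRG.43439.1 of LOC102668957, at adjusted p of 0.613, 0.623 and 0.651.

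Sister pairs moved in the same direction in 51.9% to 66.7% of cases, depending on the comparison. Of 264 sister pairs with both isoforms tested, 176 (66.7%) had differences of the same sign in MT_40 versus MT_30, 164 (62.1%) in JN_40 versus JN_30, 137 (51.9%) in MT_40 versus JN_40 and 175 (66.3%) in MT_30 versus JN_30. In MT_40 versus MT_30 both log2 differences exceeded 1 in size with the same sign in 38 pairs and with opposite signs in 8. In MT_40 versus JN_40 these numbers were 6 and 9. Sisters share reads, so the pairs are not independent. Hosts with many isoforms give many of the pairs, and no share over sister pairs of other lncRNAs was computed.

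The ratio of an isoform to the sum of its sisters was compared in the same way, on log2 of both sums plus 0.1, for 276 isoforms of 112 hosts. P-values were adjusted over 2851 lncRNAs that shared class code and host name, or assembled gene where unnamed, with another transcript. These lncRNAs were not limited to class j, so the background shares are not those of junction isoforms alone. In hosts with 2 isoforms the ratios are mirror images of each other and count as both. No isoform ratio was called in any comparison by limma, with background shares of 0% in JN_40 versus JN_30, 0% in MT_40 versus MT_30, 0% in MT_40 versus JN_40 and 0.0702% in MT_30 versus JN_30. At the unadjusted thresholds 16 isoforms passed in JN_40 versus JN_30 (5.8%, against 6.45%), 21 in MT_40 versus MT_30 (7.61%, against 5.96%), 14 in MT_40 versus JN_40 (5.07%, against 5.68%) and 23 in MT_30 versus JN_30 (8.33%, against 6.8%). The first count fell to 10 without MT_4, MT_8 or JN_5, and leaving out JN_4 gave 2 calls in MT_40 versus JN_40, both in LOC100500251. A stage effect on the ratio that differed between the materials was called for 0 isoforms (limma, against 0%), with 5 at an unadjusted p of at most 0.05 (1.81%, against 4.84%).

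At 40 d the ratio with the smallest p between the materials was that of LOC100500251. The log2 ratio of MSTRG.9435.3 to its sister was 3.58 ± 0.86 (SE) higher in MT_40 than in JN_40, without overlap, at an unadjusted limma p of 0.00124 and an adjusted p of 0.327 (0.0122 without JN_4). LOC102666349 was next by size, with the log2 ratio of MSTRG.37955.2 to its sister 3.56 ± 1.18 (SE) higher in MT_40 (limma adjusted p = 0.692). MSTRG.52552.4 of LOC100803388 held 9.26%, 5.68% and 7.78% of its host in MT_40 and 36.3%, 28.9% and 14.6% in JN_40 (limma adjusted p = 0.556). MSTRG.11445.5 of LOC102661731 held 10.4%, 7.82% and 11% in MT_40 and 41.7%, 24.7% and 47.0% in JN_40 (limma adjusted p = 0.666). In both, every MT_40 share lay below every JN_40 share, and the choice fixes a lack of overlap in the ratio.

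At 30 d the smallest p between the materials belonged to LOC100787820, a transcribed pseudogene on chromosome 15 with low levels. MSTRG.16258.2 gave 0.373, 0.0957 and 0.353 FPKM in JN_30 and was listed at 0 in MT_30, while MSTRG.16258.3 gave 0.155, 0 and 0 in JN_30 and 0, 0.294 and 0.176 in MT_30. Both ratios had a limma adjusted p of 0.294 and could not be fitted without JN_9, since MSTRG.16258.2 then missed the filter on low values. This host, named after its values were seen, stayed under the 0.5 FPKM mean asked of an isoform or its sisters. Above that level, 4 hosts without overlap came first. MSTRG.13176.3 of LOC100305717, a protein-coding gene on chromosome 13, held 42.9%, 33.9% and 47.4% in JN_30, 67.7%, 73.6% and 50.01% in JN_40, 59.4%, 68.0% and 67.1% in MT_30, and 76.1%, 68.9% and 72.5% in MT_40. The JN_30 shares lay below all others. The log2 ratio of MSTRG.13176.1 to this isoform differed by -1.30 ± 0.44 (SE) between MT_30 and JN_30 (limma adjusted p = 0.420, or 0.589 without JN_9). MSTRG.9463.1 of the lncRNA host LOC106795433 held 35.1%, 38.4% and 47.4% in JN_30 and 48.1%, 86.8% and 100% in MT_30 (limma adjusted p = 0.420, or 0.589 without JN_9), without overlap. MSTRG.9230.9 of LOC102662941 held 6.75%, 5.21% and 0.610% in JN_30 and 15.1%, 45.4% and 34.1% in MT_30 (limma adjusted p = 0.403, or 0.589 without JN_9). MSTRG.13307.2 of LOC106795550 had the smallest p of these 4 (0.00432, limma adjusted 0.333, or 0.231 without JN_9). The class j isoforms of its host were near 0 in MT_30, so that this ratio rests on values near 0.

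Between the stages, the ratio of LOC100527500 given above also had separate groups in JN18. There the log2 ratio of MSTRG.38511.2 to its sister was 0.99 ± 0.40 (SE) higher at 40 d, at an adjusted p of 0.686 by limma, or 0.607 without JN_9. MSTRG.21163.1 of LOC100818321 held 64.2%, 100% and 91.5% in JN_30 and 41.7%, 28.9% and 57.1% in JN_40 (limma adjusted p = 0.675, or 0.612 without JN_9), without overlap. The ratios of LOC102665062 and of MSTRG.4974.4 in LOC102665482 had smaller p than that of LOC100527500 in JN18 (limma adjusted 0.532 for both) and small p in MT72 (adjusted 0.444 and 0.542), but in MT72 in each case a group was listed at 0 for every isoform or nearly so, and no share could be formed there. For MSTRG.11445.5 the share was 23.3%, 54.3% and 30.8% in MT_30, above all MT_40 values (limma adjusted p = 0.542). The smallest p for a different stage effect on the ratio were those of MSTRG.11445.5 and MSTRG.9230.9 (both adjusted p = 0.802), the isoforms of LOC106794096 and MSTRG.26971.12 of LOC100805948.

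In MT72 every library at 40 d had more isoforms of this class detected than every library at 30 d, while the JN18 stages overlapped. An isoform was taken as detected at an FPKM above 0, and 277, 272 and 276 of the 334 were detected in MT_40, 267, 264 and 260 in MT_30, 278, 276 and 278 in JN_40, and 274, 272 and 278 in JN_30. Libraries at 40 d had a mean of 276 ± 2.23 isoforms (SD, n = 6), which was 7 above the 269 ± 6.71 (SD, n = 6) of those at 30 d (exact permutation test, two-sided, p = 0.0455, with 0.00216 as the lowest p this design allows). For MT72 alone the difference was 11.3 isoforms, without overlap (exact permutation test, two-sided, p = 0.1, the smallest that 3 libraries against 3 allow). Within JN18 it was 2.67 isoforms, with overlap (two-sided exact permutation test, p = 0.4). Over all 11072 lncRNAs the mean number detected was 8800 ± 85.03 (SD, n = 6) at 40 d and 8799 ± 287 (SD, n = 6) at 30 d, and within MT72 it was 8841 ± 86.6 (SD, n = 3) at 40 d and 8905 ± 54.4 (SD, n = 3) at 30 d. The test over both materials no longer passed when any library other than JN_9 or MT_5 was left out, with p of 0.0563 to 0.0909, and p was 0.0130 without JN_9. At a threshold of 0.1 FPKM the difference was 10.7 isoforms (two-sided exact permutation test, p = 0.0130). MSTRG.12688.3 and MSTRG.26971.6 were listed at 0 in all MT_30 libraries and above 0 in all others, 2 of 334 isoforms, against 13 of all 11072 lncRNAs.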

How the data were processed

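The FPKM values, made by the authors with StringTie after trimming with Cutadapt, stand in the deposited table with 1 value per library and transcript. The deposited coverage is the mean number of reads per base, with no normalization, and gave the depth and the estimated reads (coverage times length over 150 bases). Positions, exon numbers and lengths were deposited as the authors' assembly gave them. The authors scored coding potential with CPC and CNCI, a score per transcript, and kept non-coding transcripts above 200 bases. The methods name HISAT2 for mapping, the submitters' processing notes TopHat2, and versions and genome build are not given in the sources used here. No sample column of the table was left unused, and fitted values were made with limma 3.58.1 in R 4.3.3, other values with pandas 2.3.3, numpy 2.4.6 and scipy 1.17.1 in Python 3.11.15, and figures with matplotlib 3.10.9.

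All 12 libraries were grouped from their labels. Members and lists were chosen with earlier results of these data known. A trend in the prior variance was fitted, and the fit was tested on simulated data. The count-based test named by the study could not be run on FPKM, and limma was used in its place.

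Isoforms were named by a rule. In each comparison it takes the called isoforms without overlap between groups whose higher group averaged 0.5 FPKM or more (for ratios, in the isoform or its sisters), up to 10 per direction by size, filled by the smallest p to 5, and the 5 smallest p for a different stage effect. For isoforms named from a comparison of groups, the lack of overlap is thus fixed by the rule and is no added support. Hosts were the 10 with the highest summed mean, those with 4 or more isoforms, and up to 10 whose leader differed between groups with the largest change of share. Other isoforms and hosts in the text were chosen after their values were seen. Lists by host product were not run, since the reference gives symbols and gene types only. Alternatives changed the pseudocount, the filter, the groups fitted, the scale of the libraries, the definition of the ratio, the replicate block and each library in turn. Each limma p-value of the main fits rests on a spread shared by all 4 groups, of 3 biological replicates each, and moderated by the trend in the prior variance. The permutation tests exchanged libraries within 1 material, or over both materials without regard to material. Sequences, target genes, mRNAs and qRT-PCR were not analysed here.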

Additional observations from a re-analysis of the deposited data

How the results depend on the processing

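Of the 1004 alternative values of named isoforms, 63 changed side of the adjusted threshold. Counts under the alternatives, for levels and ratios, are given without a share over all lncRNAs, which was not computed. For isoforms named from a comparison of groups, the direction is fixed by the choice of groups without overlap and is no sign of stability. Isoforms named for a different stage effect were chosen by smallest p from the same data, so their direction is no sign of it either. Leaving out each library in turn gave 0 to 2 level calls in JN_40 versus JN_30, 4 to 18 in MT_40 versus MT_30, 0 to 1 in MT_40 versus JN_40 and 0 to 5 in MT_30 versus JN_30, and 0 to 2 ratio calls in MT_40 versus JN_40. At the unadjusted thresholds it gave 16 to 38 in JN_40 versus JN_30 and 23 to 52 in MT_30 versus JN_30 for levels, and 10 to 21 in JN_40 versus JN_30 for ratios. The difference of detected isoforms between 40 d and 30 d ran from 5.17 to 8.77.

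A pseudocount of 1 FPKM, which shrinks the differences of low isoforms by construction, left 6, 9, 8 and 0 levels past the unadjusted thresholds in JN_40 versus JN_30, MT_40 versus MT_30, MT_30 versus JN_30 and finally MT_40 versus JN_40, against 22, 47, 31 and 12. For ratios in the same order it left 6, 12, 7 and 7, against 16, 21, 23 and 14, and gave 1 ratio call in MT_40 versus MT_30. A filter of 0.5 FPKM in 3 libraries, which tests fewer isoforms, left 9, 9, 9 and 6 ratios. Fitting only the compared groups gave 30 level calls in MT_40 versus MT_30 and 0 in MT_30 versus JN_30, and at the unadjusted thresholds 13 levels and 10 ratios in JN_40 versus JN_30 and 13 ratios in MT_30 versus JN_30. The cause was not tested. With shares of the host in place of ratios the unadjusted thresholds were not counted, since shares were fitted on a linear scale. Hosts with 1 leader numbered 41, or 21 when restricted to the 49 hosts of at least 0.5 FPKM in every library.

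With a replicate block, possible only between materials of the same stage, level calls numbered 0 in MT_40 versus JN_40 and 2 in MT_30 versus JN_30, and ratio calls 0 in both, so that 1 call was lost. Same-numbered libraries did not deviate together (correlations of -0.159 to 0.0136, with 1 of 12 libraries closest to its own number). No paired analysis was possible between stages because their libraries share no numbers. At 58.5 to 71.5 estimated reads per FPKM, values well under 0.1 FPKM rest on a few reads, and 0 in the table is a listing, not proof of absence.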
